A study of Mus musculus with 2 samples.

Results

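The genes described here are 10 markers of epithelial and mesenchymal identity: the cadherins Cdh1 and Cdh2, the adhesion molecule gene Epcam, the claudins Cldn4, Cldn6 and Cldn7, the scaffold gene Tjp1, the keratins Krt8 and Krt18, and the vimentin gene Vim. They were taken by symbol from the deposited expression table, which lists 18888 genes, and all 10 were found. The table compares 46C mESCs, a mouse embryonic stem cell line with a green fluorescent protein reporter at Sox1, that carry either the empty PiggyBac vector (PB) or the same vector with cloned telomeric repeats, from which polyadenylated TERRA, the RNA made from telomeres, is overexpressed (PB-TERRA). Both cultures were at passage 21 to 24 on gelatin in conventional mESC medium, and whether either is a single clone is not stated in the sources used here. Total RNA of each was sequenced as 1 library, so no spread between replicates can be estimated and every difference below is between 2 libraries, not a test of the conditions.

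Mouse ESCs grow as compact colonies that keep an epithelial character. E-cadherin, the product of Cdh1, holds neighbouring cells together through calcium-dependent adhesion and is tied to actin by the catenins. Claudins are the membrane proteins that seal tight junctions, ZO-1 (Tjp1) is a scaffold beneath them, and keratin 8 pairs with keratin 18 to form the intermediate filaments of simple epithelia. N-cadherin (Cdh2) and vimentin are usually read as mesenchymal markers, because they replace E-cadherin and keratins during the epithelial-mesenchymal transition (EMT), which factors such as Snail and ZEB1 drive.

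Levels are given in FPKM, which divides the fragments of a gene by its length and by the size of the library, so that genes can be compared with each other. The number of reads per library is not listed, but low FPKM values of short genes stand on steps of 1 read. These steps gave a depth of 24622140 reads for PB and 24667623 for PB-TERRA, and 79.1% and 80.3% of the values used lay within 0.15 of a whole read. Reads of each gene were estimated from this depth, and the 95% intervals below are exact intervals of those reads that cover counting error only. The stem cell label was checked with Pou5f1, Sox2, Nanog, Zfp42, Esrrb and Dppa5a. All 6 were expressed in both libraries, 3 at a higher level in PB-TERRA and 3 at a lower one, with a median log2 ratio of 0.02.

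The 10 genes were all expressed above 1 FPKM, and in neither library did the mesenchymal pair stand together. Cdh1 had the highest level, 163.80 FPKM in PB against 152.78 in PB-TERRA, where it ranked 434 and 474 among all genes listed. Cdh2 had the lowest, 4.01 FPKM in PB against 4.26 in PB-TERRA. Vim, although read as a mesenchymal marker, was at 102.81 FPKM in PB against 105.57 in PB-TERRA, close to the keratins. In PB the order from Cdh1 downwards was Krt8, Krt18, Cldn6, Vim, Tjp1, Cldn4, Epcam, Cldn7 and Cdh2. Neighbours in this order were separated by more than their counting error, with the exception of Krt18, Cldn6 and Vim. Their intervals in PB were 108 to 116 FPKM, 101 to 108 FPKM and 99.8 to 106 FPKM. In PB-TERRA Cldn6 and Vim had exchanged places, and no neighbouring intervals overlapped.

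**Figure D1:**
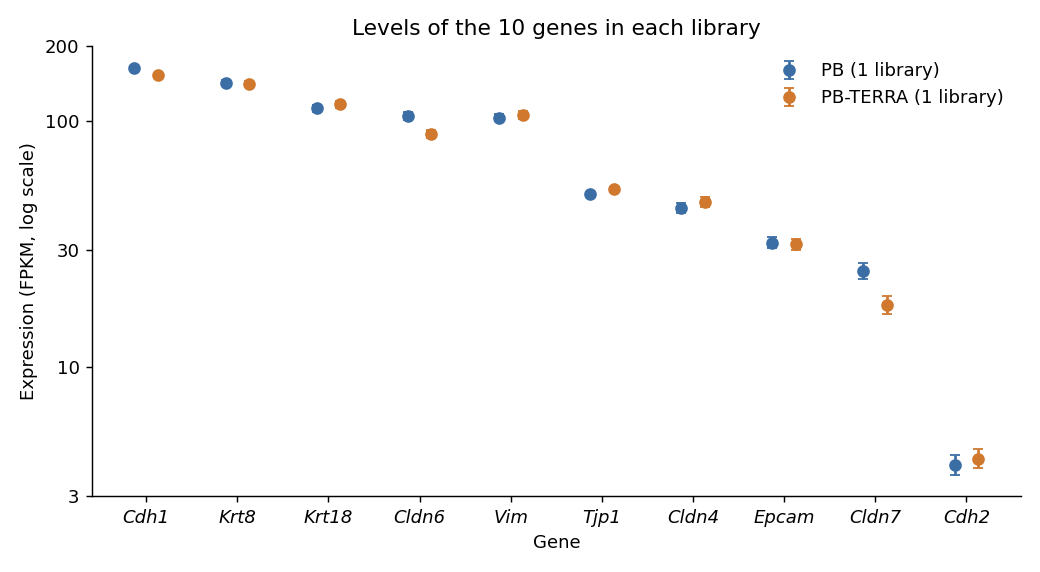
Levels of the 10 genes in FPKM (log axis), with PB in blue and PB-TERRA in orange, 1 library each, and bars for the 95% counting interval. Cdh1 is highest (163.80 and 152.78 FPKM) and Cdh2 lowest (4.01 and 4.26 FPKM), and the pairs of points are furthest apart for Cldn6 and Cldn7.

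Differences are given as the log2 ratio of FPKM + 0.1, PB-TERRA over PB. None of the 10 genes (0 of 10) reached an absolute log2 ratio of 1, which 0.913% of the 12263 genes past a filter of 1 FPKM in either library did. At a smaller step, 1 of 10 had a log2 ratio of at most -0.25 (9.6% of all genes past the filter), and 0 of 10 had one of at least 0.25 (8.02%). Cldn7 was that gene. In all, 5 of 10 genes had a log2 ratio above 0 (48.6% of all genes past the filter) and 5 of 10 one below 0 (50.9%). The counting interval lay below 0 for 3 of 10 genes (Cldn7, Cldn6 and Cdh1), against 17.5% of all genes past the filter. It lay above 0 for 1 gene, Tjp1, against 18.1%, and it included 0 for 6, against 64.4%. Differences beyond counting error were thus common among all genes, and such a difference does not by itself mark a gene. The median log2 ratio of the 10 genes was 0.01, and that of all genes past the filter was -0.0044. Fewer cells that express a gene and less RNA per cell cannot be told apart in these bulk libraries.

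**Figure D2:**
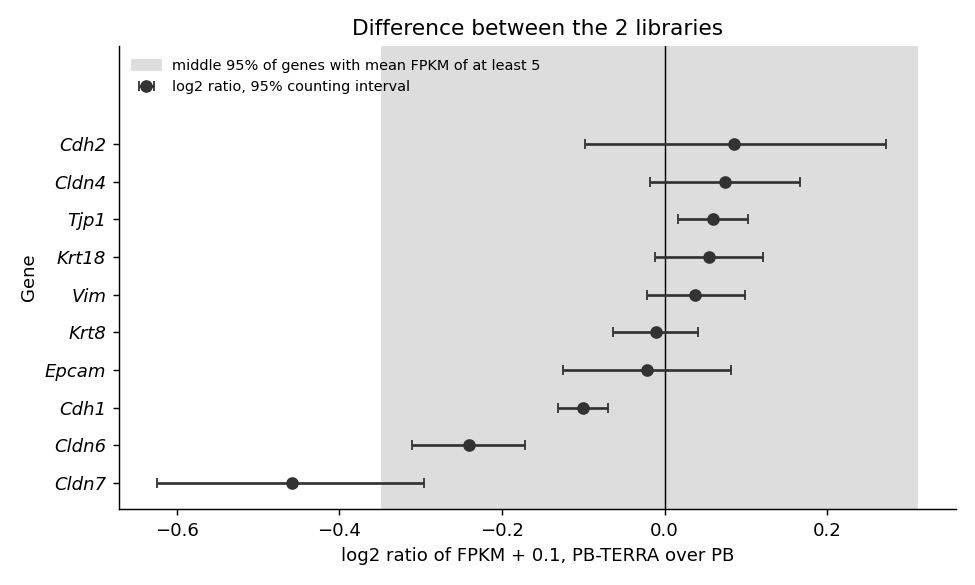
The log2 ratio of each gene, PB-TERRA over PB, with its 95% counting interval, over a grey band for the middle 95% of 8653 genes whose mean reached 5 FPKM (-0.35 to 0.31). Only Cldn7 lies outside the band, at -0.46, and its interval reaches into it.

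The classical cadherins were dominated by Cdh1. It held 92.8% of the summed FPKM of Cdh1, Cdh2 and Cdh3 in PB and 92.5% in PB-TERRA, while Cdh2 held 2.27% and 2.58%. The Cdh1 level was lower in PB-TERRA, with a log2 ratio of -0.10 (95% interval -0.13 to -0.07) from 17484 and 16337 reads. For Cdh2, with 469 and 499 reads, the log2 ratio was 0.09 (95% interval -0.10 to 0.27), so these reads do not resolve a difference. Cdh1 thus exceeded Cdh2 by a factor of 40.8 in PB and 35.9 in PB-TERRA. The log2 change of this ratio was -0.19, and its interval of -0.37 to -0.003 ended just short of 0. P-cadherin (Cdh3), the neighbour of Cdh1 on chromosome 8, had 8.66 and 8.18 FPKM (log2 ratio -0.08).

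Transcripts of the proteins that link cadherins to actin were abundant. Beta-catenin (Ctnnb1), which binds the cadherin tail and also carries Wnt signals, had 246.73 FPKM in PB against 239.55 in PB-TERRA (log2 ratio -0.04). Alpha-E-catenin (Ctnna1), the actin-binding partner, had 187.05 and 190.67 FPKM (0.03). The adherens junction list holds 12 genes besides Cdh1 and Cdh2, and 11 of them passed the filter, 6 higher and 5 lower, with a median log2 ratio of 0.01, and 1 of the 11 was past 0.25, near the 8.02% of all genes. The counting interval lay above 0 for 4 (18.1% of all genes) and below 0 for 3 (17.5%). That gene was nectin-1 (Pvrl1), at 9.65 and 12.12 FPKM (log2 ratio 0.33, 95% interval 0.22 to 0.44). Next to it stood p120-catenin (Ctnnd1), which stabilises cadherins at the membrane, at 63.98 and 71.93 FPKM (0.17). Lowest were nectin-3 (Pvrl3), at 16.86 and 15.30 FPKM (-0.14), and vinculin (Vcl), at 48.67 and 44.93 FPKM (-0.12).

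The claudins gave the widest spread among the 10 genes. Cldn7 had 24.58 FPKM in PB against 17.87 in PB-TERRA, from 726 and 529 reads, with a log2 ratio of -0.46 (95% interval -0.62 to -0.30). Of all genes past the filter, 2.82% had a lower log2 ratio. Both neighbours of Cldn7 on chromosome 11 were lower as well. Elp5 had 50.83 and 41.82 FPKM (log2 ratio -0.28), and Slc2a4, near the filter, had 1.16 and 0.93 FPKM (-0.29). Cldn6, a claudin of early embryonic epithelia, had 104.62 and 88.53 FPKM, from 3632 and 3079 reads (log2 ratio -0.24, 95% interval -0.31 to -0.17). A lower log2 ratio than that of Cldn6 was found for 10.1% of genes, and its value was -0.15 with the GC and length correction, which takes off the median log2 ratio of genes of like GC content and length. Cldn6 is among the differentiation markers that the study picked from these libraries, so its direction is not independent evidence. Cldn4 did not go with them. It had 44.43 and 46.76 FPKM, from 1876 and 1978 reads, and its log2 ratio of 0.07 had an interval that included 0 (-0.02 to 0.17).

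The balance among the claudins shifted accordingly. Cldn6 was 2.35 times Cldn4 in PB and 1.89 times Cldn4 in PB-TERRA, a log2 change of -0.31 (95% interval -0.43 to -0.20). Against Cldn7, Cldn6 went from 4.26 to 4.95 times, a log2 change of 0.22 (95% interval 0.04 to 0.39). In PB, Cldn6 held 51.9% of the summed FPKM of the 18 claudins listed in the table, Cldn4 22% and Cldn7 12.2%. In PB-TERRA these shares were 49.2%, 26% and 9.93%. The sum itself was 201.7 FPKM in PB against 180.0 in PB-TERRA (log2 ratio -0.16).

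Only 3 other claudins passed the filter. Cldn12 was level at 19.39 and 19.62 FPKM (log2 ratio 0.02). Cldn3, the neighbour of Cldn4 on chromosome 5, had 5.27 and 3.98 FPKM (log2 ratio -0.40, 95% interval -0.77 to -0.04). Cldn9, the neighbour of Cldn6 on chromosome 17, had 1.58 and 1.63 FPKM (0.04, 95% interval -0.525 to 0.63). The intervals of Cldn3 and Cldn4 did not overlap, whereas that of Cldn9 included the value of Cldn6.

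**Figure D3:**
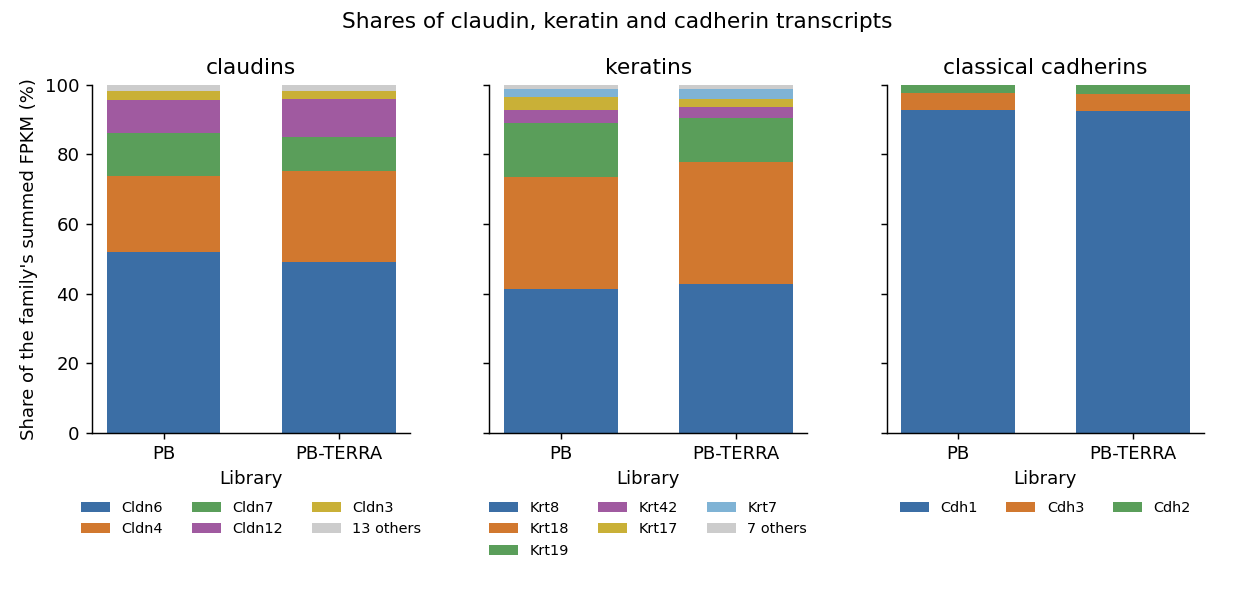
Share of the summed FPKM (%) held by each gene among 18 claudins, 13 keratins and 3 classical cadherins, with 1 stacked bar for PB and 1 for PB-TERRA in each panel. Cldn6 goes from 51.9% to 49.2% and Cldn4 from 22% to 26%, Krt8 and Krt18 together hold 73.6% and 77.7%, and Cdh1 holds 92.8% and 92.5%.

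The promoter sequences of the 3 claudins are shown because these genes, although of 1 family, differed in their log2 ratio. They are the 100 bases before the annotated start, from RefSeq on GRCm38.p6, which is not the mm9 build of the deposited table. Capitals mark the E-box CAGGTG, the motif that Snail and ZEB1 recognise, the GC box GGGCGG and the cAMP response element TGACGTCA, each on either strand. A site that runs across the start is not in capitals, such as a second GC box of Cldn4 that begins 5 bases before it. Cldn4 lies on the minus strand of chromosome 5 (chr5:134946935-134947034), Cldn6 on the plus strand of chromosome 17 (chr17:23679265-23679364) and Cldn7 on the plus strand of chromosome 11, here at the downstream one of 2 annotated starts (chr11:69965321-69965420).
Cldn4: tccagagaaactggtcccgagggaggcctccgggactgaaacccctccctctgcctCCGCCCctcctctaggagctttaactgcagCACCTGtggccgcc
Cldn6: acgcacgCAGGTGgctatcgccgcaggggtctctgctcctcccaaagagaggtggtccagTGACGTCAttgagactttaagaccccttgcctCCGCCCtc
Cldn7: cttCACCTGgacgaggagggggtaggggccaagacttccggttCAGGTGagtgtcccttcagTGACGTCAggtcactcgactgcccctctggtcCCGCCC

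Over the full window of 250 bases before and 50 after the start, the E-box letters occurred in 6 of the 8 genes that have a promoter in the RefSeq table. These were Cldn4, Cldn6, Cldn7, Epcam, Krt8 and Krt18, and the letters did not occur in the windows of Vim and Tjp1. Of all 32851 promoters in the table, 20.2% hold the E-box. This and the shares of all promoters below are counted per promoter. The 8 genes are counted once each, also where only 1 of their promoters matches. The cAMP response element was searched after the sequences had been seen. It occurred in Cldn6, 40 bases before the start, and in Cldn7, 38 bases before, and in 1.79% of all promoters. The matches of Cldn7 are all at its downstream start, and none of these motifs was found in the window of the upstream one. In the window of Cldn4 the letters of the cAMP response element were not found. A GC box was found in 5 of the 8 genes (Cldn4, Cldn6, Cldn7, Epcam and Tjp1) and in 35.7% of all promoters. The CCAAT box was found in 1 of the 8 (Vim) and in 37.4% of all promoters, and the TATA box TATAAA in 2 (Krt8 and Vim) and in 13.6%. Its letters begin 32 bases before the start in Vim. In Krt8 they begin 1 and 3 bases before it, on opposite strands, and so run across the start. The GC content of the 9 windows was 52.0% to 65.3%, beside a median of 52.7% over all promoters, so these shares do not come from promoters of like composition. The matches describe the letters of these windows and say nothing of binding. A promoter of Cdh1 and of Cdh2 was not analysed here.

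Epcam encodes a membrane protein that supports contact between epithelial cells and stabilises Cldn7. It had 31.98 FPKM in PB against 31.52 in PB-TERRA, from 1535 and 1515 reads, with a log2 ratio of -0.02 (95% interval -0.125 to 0.08). The levels of Epcam and Cldn7 thus differed in their log2 ratio, and their intervals did not overlap. Epcam shows an E-box of its own close to the annotated start, 19 bases before it on the plus strand of chromosome 17 (chr17:87635879-87635978), and it is printed here to set beside the claudins.
Epcam: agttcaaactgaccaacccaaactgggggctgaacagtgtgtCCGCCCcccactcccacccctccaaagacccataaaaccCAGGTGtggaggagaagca

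The list of epithelial regulators and surface proteins has 16 genes besides Epcam, of which 15 passed the filter, 3 higher and 12 lower (50.9% of all genes), with a median log2 ratio of -0.08. The counting interval lay below 0 for only 2 of the 15, near the 17.5% of all genes, and included 0 for 12. The protease inhibitor gene Spint2 was the most abundant, with 111.43 and 107.11 FPKM (-0.06), followed by its target protease matriptase (St14), with 31.16 and 29.55 FPKM (-0.08). The splicing regulator Esrp1, which directs epithelial isoforms, had 21.82 and 18.21 FPKM (log2 ratio -0.26, 95% interval -0.355 to -0.17). Lower still was the transcription factor Ovol1, at 1.52 and 1.12 FPKM (-0.41), but its interval reached 0.003. Grhl2, an activator of Cdh1 and claudin genes, was the highest, at 9.66 and 10.89 FPKM (log2 ratio 0.17, 95% interval 0.06 to 0.29), and Ovol2 followed at 2.27 and 2.44 FPKM (0.10).

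Tjp1 was the only 1 of the 10 genes whose counting interval lay above 0. Its level was 50.53 FPKM in PB against 52.67 in PB-TERRA, from 8445 and 8819 reads, with a log2 ratio of 0.06 (95% interval 0.02 to 0.10). With the GC and length correction the value was -0.003, so its direction is not settled. Junctional adhesion molecule A (F11r) had 29.75 and 29.10 FPKM (-0.03).

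Of 18 tight junction genes other than Tjp1 and the claudins, all passed the filter. In PB-TERRA 3 were higher, 13 lower (50.9% of all genes) and 2 equal, with a median log2 ratio of -0.08. The list includes Cgn, which the study picked from these libraries. For 7 genes the counting interval lay below 0 (17.5% of all genes), and for 1 it lay above (18.1%). Among them, 3 were at or below -0.25 (9.6% of all genes) and 1 was past 0.25 (8.02%). The gene past 0.25 was Jam2, a junctional adhesion molecule, with 24.58 and 33.72 FPKM (log2 ratio 0.45, 95% interval 0.39 to 0.53). Its relative Jam3 went the other way, with 8.36 and 5.98 FPKM (-0.48, 95% interval -0.715 to -0.26). Crb3, a polarity gene of the apical membrane, had 13.27 and 9.94 FPKM (-0.41, 95% interval -0.64 to -0.19). The polarity gene Pard6b was close to level at 12.50 and 12.84 FPKM (0.04). A wider set was taken from the GO term apical junction complex after the table had been seen. It holds 79 genes besides the 10, of which 55 passed the filter, 28 higher, 25 lower and 2 equal, with a median log2 ratio of 0.003.

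**Figure D4:**
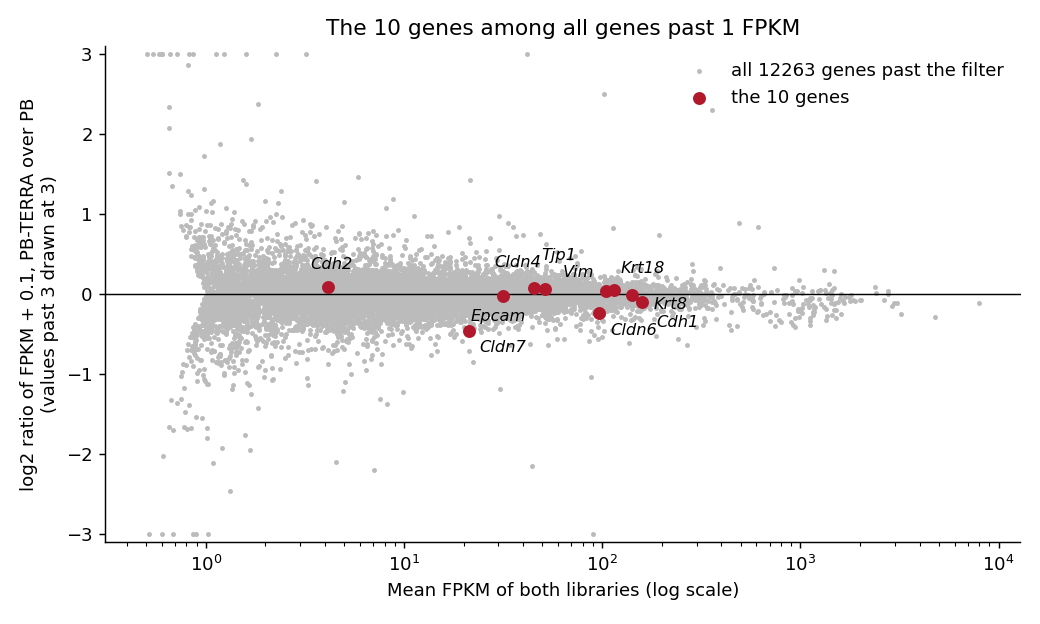
Mean FPKM of both libraries (log axis) against the log2 ratio, PB-TERRA over PB, for the 12263 genes past the filter in grey and the 10 genes in red. The red points range from -0.46 for Cldn7, near the lower edge of the dense grey band, to 0.09 for Cdh2, and values past 3 are drawn at 3.

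The keratin pair differed by no more than counting error between the libraries. Krt8 had 142.49 FPKM in PB against 141.42 in PB-TERRA, from 5940 and 5906 reads, with a log2 ratio of -0.01 (95% interval -0.06 to 0.04). Krt18 had 112.07 and 116.40 FPKM, from 3554 and 3698 reads (log2 ratio 0.05, 95% interval -0.01 to 0.12). With the GC and length correction the value of Krt18 was 0.14, above that interval. The genes are neighbours on chromosome 15, and their products are obligate partners in the filament. The ratio of Krt8 to Krt18 was 1.27 in PB and 1.21 in PB-TERRA, and the log2 change of -0.07 had an interval of -0.15 to 0.02. Of the 50-base stretches of the annotated Krt8 transcripts, 29.7% (567 of 1909) also occur in transcripts of other genes, mainly the pseudogene Krt8-ps. For Krt18 this was 0.72%, and for the other 8 genes 0%. How the authors' counting divided such reads is not given in the sources used here, so the level of Krt8 is uncertain beyond its counting error.

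Of 11 less abundant keratins, 5 passed the filter, 1 higher and 4 lower (50.9% of all genes). For 3 the counting interval lay below 0 (17.5% of all genes), and for none above it (18.1%). The median log2 ratio of these keratins was -0.34, but -0.16 with no filter and -0.24 with the GC and length correction. Krt19, a type I keratin of simple epithelia that can also pair with keratin 8, had 53.46 and 42.12 FPKM (log2 ratio -0.34, 95% interval -0.45 to -0.24). Krt17 had 12.23 and 8.46 FPKM (-0.53, 95% interval -0.75 to -0.32), and Krt42 had 13.07 and 10.33 FPKM (-0.34, 95% interval -0.54 to -0.14). All 3 encode type I keratins, as does Krt18, which was not lower. Krt7, a type II keratin and a marker of trophoblast, had 8.68 and 9.60 FPKM (0.14, 95% interval -0.075 to 0.37). Krt14 had 2.09 and 1.85 FPKM (-0.17). Krt8 and Krt18 together made up 73.6% of the summed FPKM of 13 listed keratins in PB and 77.7% in PB-TERRA, and Krt19 made up 15.5% and 12.7%.

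Desmosomes anchor keratin filaments at the cell surface, and 9 of 12 listed genes passed the filter. Of these 9, 6 were higher (48.6% of all genes) and 3 lower, with a median log2 ratio of 0.07, or 0.03 after a correction for length alone. The counting interval lay above 0 for 4 (18.1% of all genes) and below 0 for none (17.5%). Perp, a desmosomal membrane protein and p53 target, had 58.24 and 79.53 FPKM (log2 ratio 0.45, 95% interval 0.38 to 0.52), and desmocollin-2 (Dsc2) had 3.13 and 4.06 FPKM (0.37, 95% interval 0.17 to 0.58). Plakophilin-4 (Pkp4) had 42.74 and 44.77 FPKM (0.07). The lowest were plakophilin-3 (Pkp3), at 5.08 and 4.66 FPKM (-0.12), and periplakin (Ppl), at 3.23 and 3.18 FPKM (-0.02), and both intervals included 0.

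Vim, which encodes the filament protein of mesenchymal cells, differed by no more than counting error as well. From 4359 and 4484 reads its log2 ratio was 0.04 (95% interval -0.02 to 0.10). The ratio of Krt8 to Vim was 1.39 in PB and 1.34 in PB-TERRA, and its log2 change was -0.05 (95% interval -0.13 to 0.03). Vim was thus near the level of the keratins in both libraries, and neither Vim nor Cdh2 had an interval outside 0.

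Transcription factors of EMT had low levels. Of 9 listed, 4 passed the filter, all 4 higher in PB-TERRA (48.6% of all genes), with a median log2 ratio of 0.16, but the counting interval included 0 for each. Snail (Snai1), which represses Cdh1, had 4.3 and 5.15 FPKM (log2 ratio 0.25, 95% interval -0.05 to 0.57). ZEB1 (Zeb1), a further repressor of Cdh1, had 2.90 and 3.32 FPKM (0.19, 95% interval -0.002 to 0.39). Snai3 and Twist1 were at 0.09 and 0.12 on the log2 scale. Taken alone, none of these 4 genes thus had reads that resolve a difference, and their reads together were not assessed. With no filter, 8 of the 9 were higher and the median was 0.24. Among the 5 below the filter, Zeb2, named after its values were seen, had 68 and 98 reads (log2 ratio 0.42, 95% interval 0.06 to 0.99).

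Of 13 mesenchymal genes besides Vim, 8 passed the filter, 5 higher (48.6% of all genes) and 3 lower, with a median log2 ratio of 0.06. The counting interval lay above 0 for 4 (18.1% of all genes) and below 0 for 2 (17.5%). The matrix gene Fn1 had 89.17 and 93.03 FPKM (0.06), and transgelin (Tagln), an actin-binding protein, had 111.48 and 89.44 FPKM (log2 ratio -0.32, 95% interval -0.385 to -0.25). The collagen genes Col1a1 and Col1a2 were highest. Col1a1 had 7.99 and 12.14 FPKM (log2 ratio 0.60, 95% interval 0.495 to 0.71) and Col1a2 had 0.92 and 1.37 FPKM (0.53, 95% interval 0.23 to 0.93). The matrix protease Mmp2 had 5.84 and 5.03 FPKM (-0.21).

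**Figure D5:**
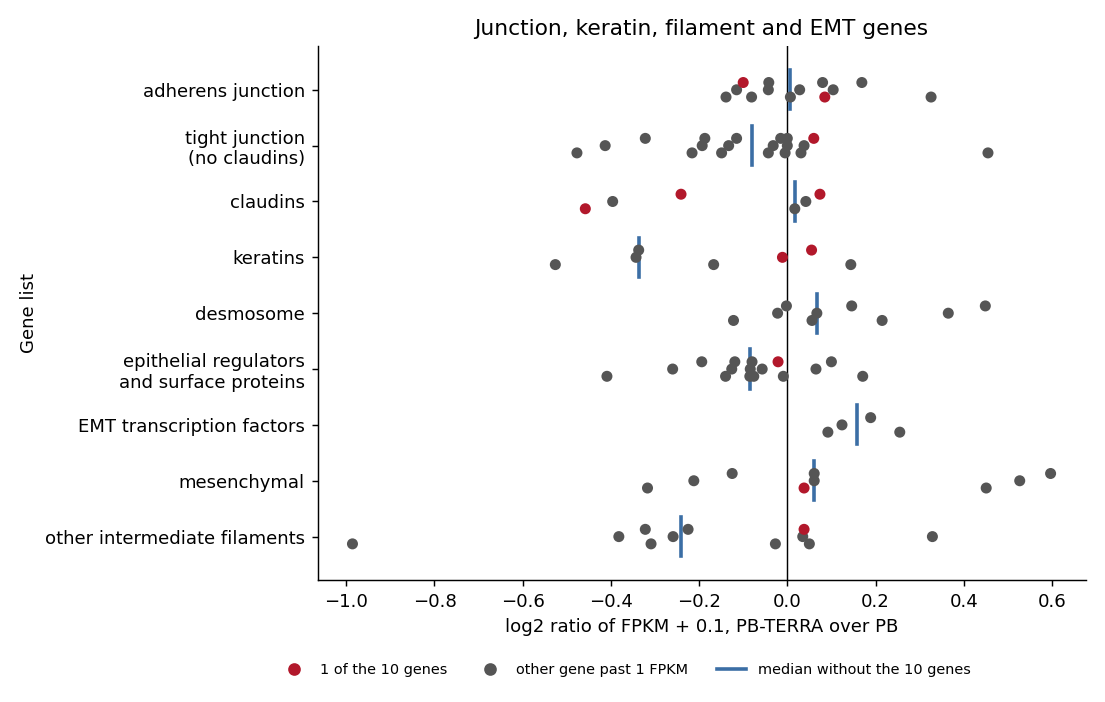
Log2 ratio, PB-TERRA over PB, of each gene past 1 FPKM in 9 lists, with the 10 genes in red, all others in grey and the median without the 10 genes as a blue line. The keratin median lies at -0.34 and the desmosome median at 0.07, while Krt8, Krt18 and Vim lie near 0.

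Markers of other cell types were also present. For primitive endoderm, whose cells also carry keratin 8 and 18, 6 of 9 markers passed the filter, and all 6 were higher in PB-TERRA, against 48.6% of all genes (summed level 12.1 FPKM in PB against 16.3 in PB-TERRA). Of 10 trophoblast markers 9 are listed in the table, 5 passed the filter, 4 of them higher (48.6% of all genes) and 1 lower, and the summed level was 22.5 and 25.4 FPKM. Members went both ways beyond counting error, with Hand1 at 0.91 and Cdx2 at 0.79 on the log2 scale and Eomes at -0.275. Fibroblast markers, of which 4 of 9 passed the filter, 3 higher (48.6% of all genes) and 1 lower, summed to 20.3 and 24.3 FPKM. Col1a1, at 7.99 and 12.14 FPKM, accounts for the difference in the sum, while Thy1 had 9.16 and 8.39 FPKM (-0.125). Neural progenitor markers, of which 3 of 7 passed it, 1 higher and 2 lower (50.9% of all genes), summed to 86.7 and 74.6 FPKM. Tubb3 made up 57.66 and 51.48 FPKM of this sum, and Nes 27.30 and 20.93 FPKM. The higher one was Sox1, at 1.06 and 1.56 FPKM (log2 ratio 0.52, 95% interval 0.19 to 0.94), and Dcx was at the floor of 0.01 FPKM in both libraries. The part of such cells in the levels of the 10 genes was not tested.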

How the data were processed

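Total RNA from PB and PB-TERRA cells was sequenced on the BGISEQ-500, 1 library per condition. The submitters' processing notes name HISAT, Cufflinks and the build mm9, without versions. The authors deposited 1 table whose header names no unit, and its values were read as FPKM with a lowest value of 0.01. Columns that hold the authors' own comparison (log2 fold change, p-value, adjusted p-value and direction) were not used.

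Depth was taken as the value that brings FPKM times gene length, less 112 bases, closest to whole reads in short genes with few reads. The 112 bases are a fitted value whose origin is not known. On simulated data of 18888 genes, 200 of them changed, depth was recovered within 0.01%, and the 95% intervals covered the true value for 95.4% of unchanged and 96.5% of changed genes. The simulated reads were whole reads with counting error alone. The simulation therefore checks the calculation, and not whether the real values follow this model. Intervals are exact Clopper-Pearson for a log2 ratio, exact Poisson for a level, and approximate, from the log odds ratio, for a change of a ratio between genes. Reads without molecular identifiers are not independent molecules, so they cover counting error only.

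The filter was 1 FPKM in at least 1 library and the pseudocount 0.1 FPKM. No test was made. Genes named per list are the 2 most abundant and the 2 highest and 2 lowest log2 ratios with at least 50 reads in 1 library. One gene that this rule names is not reported here. Cdh3, neighbouring genes, the cAMP response element and the GO term were added after values or sequences were seen. The members and lists were chosen with earlier results of these data known. GC content from GENCODE M21 (GRCm38) was found for 93.5% of genes past the filter. Alternatives were other scalings, pseudocounts, filters, length and GC corrections. Software was Python 3.11.15 with scipy 1.17.1, numpy 2.4.6, matplotlib 3.10.9 and pandas 2.3.3.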

Additional observations from a re-analysis of the deposited data

How the results depend on the processing

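Other scalings, pseudocounts, filters and a length correction were tried, and a correction for GC content with length was chosen after seeing the data. Of 114 values recomputed, 100 stayed close to the reported ones (within counting error, 1.5 times a count or 0.1 for a list's median), 13 moved further and 1, for Tjp1, changed sign from a value outside counting error. Scaling to the summed FPKM, which shifts all genes by 0.04 on the log2 scale, gave Cdh1 a log2 ratio of -0.062. With the median of genes of like GC content and length taken off, Cldn6 was at -0.15, Krt18 at 0.14 and Tjp1 at -0.003. Of 70 values for the 10 genes, 6 changed sign, all for Epcam, Krt8 and Tjp1. Cldn7 stayed negative, at -0.42 with the length and -0.375 with the GC and length correction. The 112 genes with an absolute log2 ratio of at least 1 became 513 with no filter, 17 with a mean of at least 5 FPKM and 45 with a pseudocount of 1 FPKM. The median of the other keratins was -0.16 with no filter and -0.24 with the GC and length correction. As shares of estimated reads in PB, which favour long genes, Cldn6 held 44.0% and Cldn7 8.8% of the claudins, Krt8 47.3% and Krt18 28.3% of the keratins, and Cdh2 2.5% of the cadherins. The cause of the other shifts was not tested. No paired analysis was possible because each condition has 1 library.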

Other observations

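Of the intermediate filament genes other than keratins and Vim, 10 passed the filter and 7 of these were lower in PB-TERRA, against 50.9% of all genes. Their median log2 ratio was -0.24, beside -0.0044 for all genes. The counting interval lay below 0 for 6 (17.5% of all genes) and above 0 for 2 (18.1%). Neurofilament medium (Nefm) had 1.88 FPKM in PB against 0.90 in PB-TERRA (log2 ratio -0.99, 95% interval -1.49 to -0.63). Nestin (Nes), a filament protein of neural progenitors, had 27.30 and 20.93 FPKM (-0.38, 95% interval -0.45 to -0.32), and alpha-internexin (Ina) had 54.04 and 45.15 FPKM (-0.26). The nuclear lamin gene Lmnb1 was nearly level, at 140.51 and 145.48 FPKM (0.05), and synemin (Synm) was the highest, at 1.15 and 1.47 FPKM (0.33). Nes, like Cldn6, is a marker that the study picked from these libraries. Vim, at 0.04, did not go with the cytoplasmic filament genes that were lower.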
